A study of Mus musculus with 24 samples.

Results

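The exocrine acinar genes described here are 40 genes for the digestive proenzymes, zymogen granule proteins, Reg proteins and transcription factors of the pancreatic acinar cell, read in RNA-seq libraries of mouse islet cells. They were chosen by symbol from the 41549 genes of the deposited table, and all 40 were found. The rule used symbols alone, but the list of symbols was drawn up with earlier results of these data known. Of the 40 genes, 39 passed the filter on low counts and were tested among 15916 genes, and Reg3a was the exception. Prss1, Prss3, Ctrc and Reg3d passed that filter only through the libraries of batch 1.

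The cells came from islets of male and female C57BL/6NRj mice of 12 to 14 weeks. Islets were isolated with collagenase, a density gradient and handpicking, dispersed, and transfected with 50 pmol of an antisense oligonucleotide (ASO) with locked nucleic acid bases. The control oligonucleotide is called Ctr, and the other, αGlu, blocks a fragment that is cut from the start of tRNA-Glu(CTC). The cells then spent 48 h with 0.5 mM palmitate (PA) bound to albumin, or with 0.75% fatty-acid-free bovine serum albumin (BSA) alone. Palmitate is a saturated fatty acid used to model lipid stress in islets. The 4 groups were Ctr BSA, αGlu BSA, Ctr PA and αGlu PA, with 6 libraries each, 3 in batch 1 and 3 in batch 2. All groups share the dispersion and a transfection, and there was no untransfected group. The labels do not say what set the batches apart. The 24 libraries held 18214719 to 35001979 counts, with a median of 26701202.

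Acinar cells make and store the enzymes that digest protein, fat, starch and nucleic acid, and release them into the ducts. Most of these enzymes are made as inactive precursors and packed into zymogen granules, with Spink1, a trypsin inhibitor, beside them. The PTF1 complex, built on Ptf1a and Rbpjl, drives the enzyme genes, Nr5a2 acts with it, and Bhlha15 (Mist1) organises the secretory cell. Reg proteins are small secreted lectin-like proteins of acinar and gut cells that are raised in pancreatitis. Islets are endocrine, so acinar transcripts in an islet preparation can come from exocrine tissue carried along with the islets, and some of these genes are also used by other cells. In bulk RNA, fewer acinar cells and less acinar RNA per cell cannot be told apart.

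The genes lie on many chromosomes, with a pair of clusters on chromosome 6 (GENCODE vM21, GRCm38). The 6 trypsinogen genes lie between 41302269 and 41525079 of that chromosome, a span of 223 kb, and the 6 Reg genes between 78370657 and 78468872, a span of 98.2 kb. Near-identical copies limit some of the values. Of the stretches of 50 bases in its transcripts, 65.6% of those of Try4 also occur in another gene, most often Try5, and the share was 47.6% for Try5, 54.9% for Prss1, 66.1% for Prss3 and 40.8% for Try10, against 7.83% for Prss2. Amy1 shares 33.3% (mainly with Rnpc3), Klk1 24% and Cela3b 19.3%. How reads in shared stretches were assigned is not given in the sources used here, so the split among trypsinogens is uncertain.

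Upstream sequence is shown for 7 members that differed in how they moved. Cela1, Cel, Ctrl, Pnlip and Try4 are enzyme genes that fell with PA in the comparisons described here, and Bhlha15 and Gatm are the members that rose. The stretches are the 150 bases just before the RefSeq start (GRCm38.p6), 5′ to 3′ on the gene's own strand. Capitals mark 3 motifs on either strand. The first is the E-box CACCTG, which reads CAGGTG on the opposite strand, and another is the E-box CAGCTG, the same on both strands. E-boxes bind basic helix-loop-helix factors such as Ptf1a and Bhlha15. The last is TTTCCC, which reads GGGAAA on the opposite strand, the TC-box read by the Rbpjl side of PTF1.
Cela1: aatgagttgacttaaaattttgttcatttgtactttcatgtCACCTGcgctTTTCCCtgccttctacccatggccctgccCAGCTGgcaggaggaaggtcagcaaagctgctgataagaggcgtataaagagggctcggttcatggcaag
Cel: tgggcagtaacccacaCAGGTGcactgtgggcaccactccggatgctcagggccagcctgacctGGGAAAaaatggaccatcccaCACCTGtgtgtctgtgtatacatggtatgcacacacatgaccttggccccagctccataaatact
Ctrl: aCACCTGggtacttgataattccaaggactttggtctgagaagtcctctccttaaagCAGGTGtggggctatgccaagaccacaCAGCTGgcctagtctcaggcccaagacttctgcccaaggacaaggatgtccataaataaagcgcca
Pnlip: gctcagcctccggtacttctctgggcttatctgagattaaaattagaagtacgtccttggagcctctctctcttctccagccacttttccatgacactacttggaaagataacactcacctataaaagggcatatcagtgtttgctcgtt
Try4: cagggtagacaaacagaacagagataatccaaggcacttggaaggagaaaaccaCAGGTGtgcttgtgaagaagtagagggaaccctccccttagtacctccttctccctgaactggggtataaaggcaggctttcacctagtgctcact
Bhlha15: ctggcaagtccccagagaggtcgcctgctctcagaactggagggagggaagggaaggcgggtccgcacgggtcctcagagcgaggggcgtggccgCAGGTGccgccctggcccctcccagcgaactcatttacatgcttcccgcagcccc
Gatm: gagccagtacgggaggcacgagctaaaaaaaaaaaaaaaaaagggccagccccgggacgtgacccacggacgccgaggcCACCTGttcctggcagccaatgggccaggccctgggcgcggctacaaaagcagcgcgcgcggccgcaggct

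These stretches lie at chr15:100687921-100688070 (minus strand) for Cela1, chr2:28563404-28563553 (minus strand) for Cel, chr8:105933863-105934012 (minus strand) for Ctrl and chr19:58670215-58670364 (plus strand) for Pnlip. Try4 is at chr6:41302122-41302271 (plus strand), Bhlha15 at chr5:144190136-144190285 (plus strand) and Gatm at chr2:122611278-122611427 (minus strand). The stretch of Cela1 holds an E-box next to a TC-box, that of Cel holds both kinds, Ctrl has E-boxes alone, and Pnlip has none of the marked letters in this window. Bhlha15 and Gatm, which moved the other way, each hold a CACCTG E-box too.

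RefSeq promoters were on hand for 33 of the 40 members (35 promoters). In the 250 bases before the start, CACCTG on either strand occurred in 20 of the 35 (57.1%), against 17.2% of 32851 mouse promoters of the same length. CAGCTG occurred in 14.3% against 13% of all promoters, TTTCCC in 31.4% against 21.9%, and any E-box (CANNTG, which includes both hexamers) in 80% against 66.2%. AAGGTCA, the half-site of Nr5a2, occurred in 11.4% against 4.08%, and TTCNNNGAA, the letters bound by STAT factors, in 11.4% against 7.02%. An E-box of either hexamer with a TTTCCC starting within 30 bases occurred in 6 of the 35 (17.1%), against 1.37% of all, in the promoters of Cel, Prss1, Reg3b, Reg3d, Ctrb1 and Cela1. These are matches of letters and were not read as bound sites.

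The most abundant proenzyme transcript stood high among all genes of these islet cells in batch 1. On the deposited TPM scale, which allows for length, Ctrb1 (chymotrypsinogen B) had a median of 7465 TPM over the 12 libraries of batch 1, place 15 among all genes. Try5 followed at 4719 TPM, Prss2 at 3010 TPM and Cela2a at 1738 TPM, so serine proteases took the top of the list. Next came Clps (colipase) at 920 TPM, the carboxypeptidase Cpa1 at 866 TPM, Pnlip (pancreatic lipase) at 685 TPM and Pnliprp1 at 647 TPM. The lowest was Reg3a at 0.783 TPM. The ranges over libraries were wide, from 4026 to 17064 TPM for Ctrb1 and 2627 to 8218 TPM for Try5, so the order of these neighbours is that of their medians and their ranges overlap. Transcription factors were low, with 26.4 TPM for Ptf1a and 4.46 TPM for Rbpjl. The order by RPKM gave 38 of the 40 genes the same place.

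In batch 2 the same genes headed the list at lower levels, with medians of 629.6 TPM for Ctrb1, 235 TPM for Try5, 181 TPM for Prss2 and 68.3 TPM for Cela2a. Pnlip dropped from place 7 to place 16. Bhlha15 went the other way, from place 25 (33.8 TPM) to place 7 (52.9 TPM), and Gatm from place 26 (29.6 TPM) to place 12 (also 29.6 TPM).

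**Figure D1:**
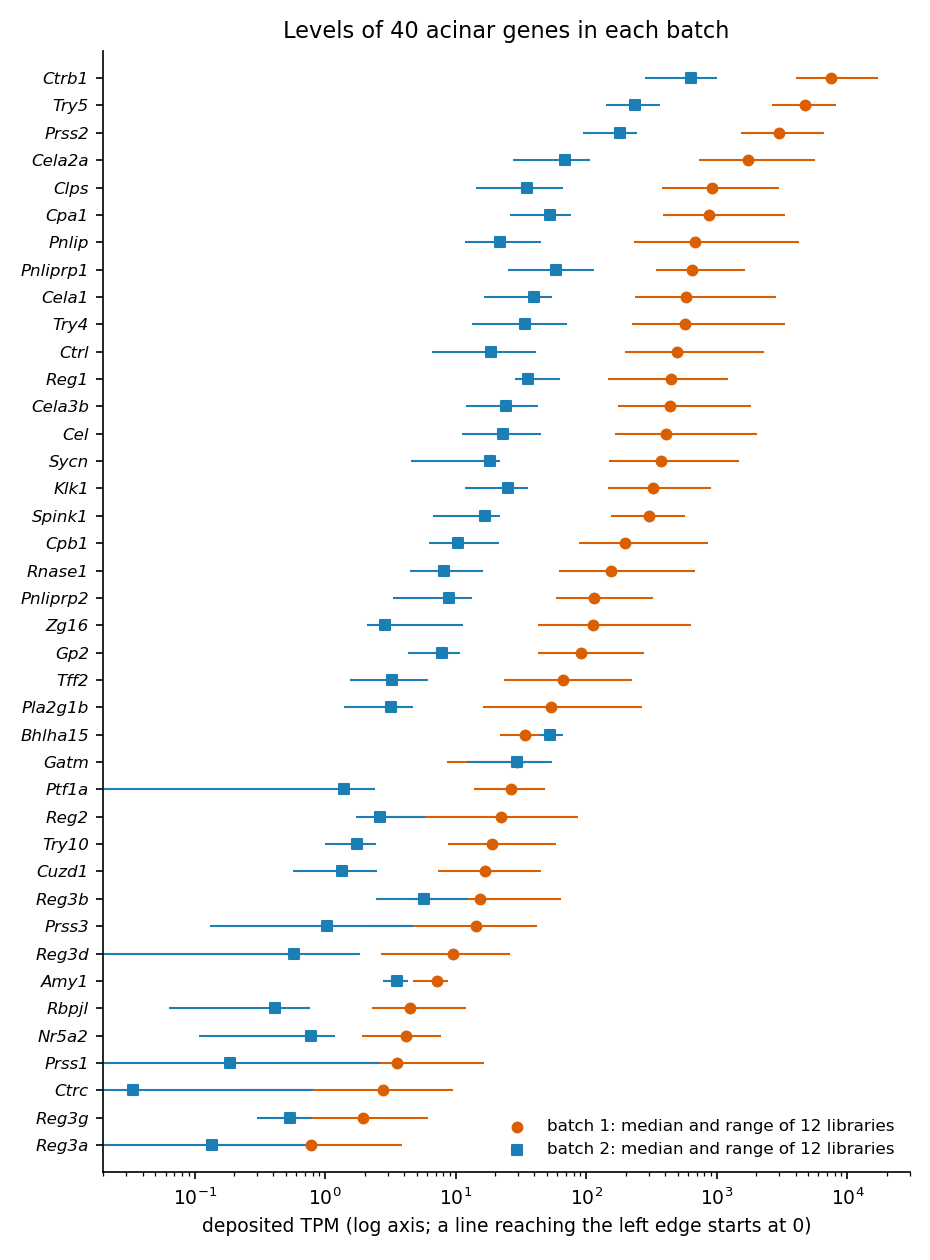
Deposited TPM (log axis) of the 40 genes in each batch, ordered by the median of the 12 libraries of batch 1; points are medians and lines run from the lowest to the highest library. Most genes sit more than 10-fold lower in batch 2, whereas Gatm stays in place and Bhlha15 is higher.

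Of the comparisons made here, the acinar genes differed most between batches. Together they took 0.498% to 3.01% of the counts in batch 1 (mean 1.29% ± 0.77, SD, n = 12) and 0.0443% to 0.1004% in batch 2 (n = 12), with medians of 1.01% and 0.0754%. In batch 1 the 3 Ctr BSA libraries stood at 0.816%, 2.03% and 3.01%, the αGlu BSA libraries at 0.803%, 1.69% and 2.04%, the Ctr PA libraries at 0.528%, 0.707% and 1.40%, and the αGlu PA libraries at 0.498%, 0.732% and 1.20%. In batch 2 the Ctr BSA libraries stood between 0.0692% and 0.0897%, αGlu BSA between 0.0783% and 0.1004%, Ctr PA between 0.0443% and 0.0946% and αGlu PA between 0.0640% and 0.0766%. No library of batch 2 reached the lowest of batch 1. Within a batch the treatment ranges overlapped, taken over libraries without regard to which shared a source, since the labels do not tell. Ctrb1 alone made 17.6% to 31.3% of the members' counts, and the ratio of the batch means was 17.2 with it and 18.6 without it.

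**Figure D2:**
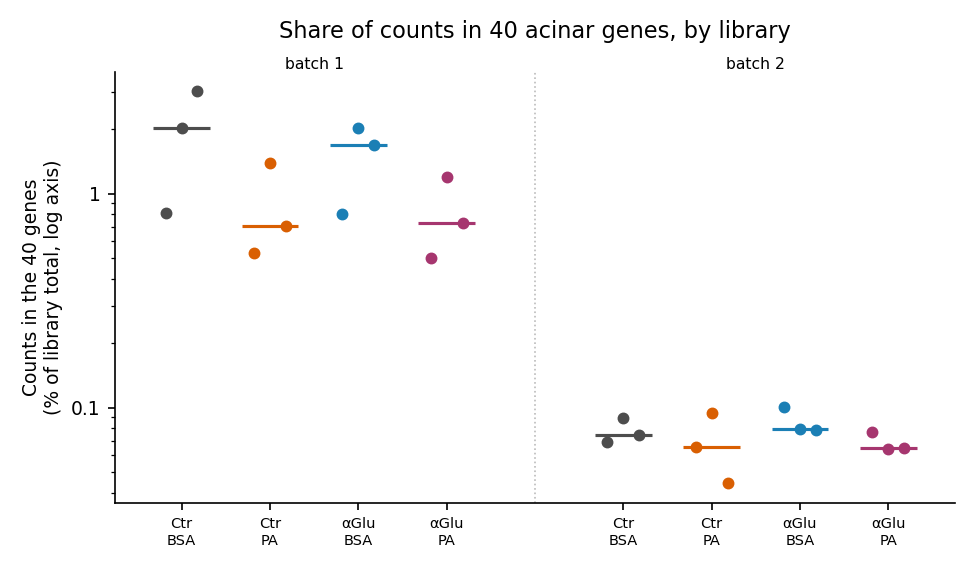
Share of all counts that fell in the 40 acinar genes (percent, log axis) for each of the 24 libraries; points are libraries, lines are group medians within a batch. Batch 1 spans 0.498% to 3.01% and batch 2 0.0443% to 0.1004%, with PA and BSA libraries overlapping inside each batch.

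Levels of single genes are given below as CPM (counts scaled to library size after TMM scaling, which corrects for the make-up of each library). Differences are log2 fold changes with their standard errors from edgeR's quasi-likelihood test on all 24 libraries with group and batch, and adjusted p-values are Benjamini-Hochberg over all 15916 genes. Prss1, Prss3, Ctrc and Reg3d passed the filter only through batch 1, so the batches are compared without these 4. In batch 2 against batch 1, 33 of the 35 others were lower and Bhlha15 alone was higher, where 25.4% of all genes were lower and 26.1% higher. By a fold above 2 with unadjusted p below 0.05, 32 of the 35 passed, against 6.38% of all genes. The median log2 fold change of the 35 was -4.26, against 0.00 over all genes tested. For 30 of them every library of batch 2 lay below every library of batch 1, which held for 3.64% of genes tested. With the 4 filtered members counted, 37 of 39 were lower.

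The size of the batch difference varied among members, within roles too. Zg16, a lectin of the zymogen granule (-5.42 ± 0.34), and Pnlip (-5.36 ± 0.31, a fold of 40.9) fell furthest on the log2 scale. Ctrl, a chymotrypsin-like protease, was at -5.02 and Cela2a at -4.83. Try5, the trypsinogen of most counts, was at -4.26 ± 0.21 (adjusted p = 2.59e-13, edgeR), a fold of 19.1, and Ctrb1 at -3.64, a fold of 12.4. Spink1 (-4.33) and the factor Ptf1a (-4.26) fell as far as the enzymes. The Reg genes Reg1, Reg2, Reg3g and Reg3b ranged from -3.72 for Reg1 to -2.05 for Reg3b, and all 4 passed. Nr5a2, a nuclear receptor, was at -2.61. Amy1, whose salivary-type promoter is also used outside the pancreas, was at -0.91. Bhlha15 was at 0.77 ± 0.04 (adjusted p = 1.48e-12, edgeR), and Gatm, the mitochondrial enzyme of creatine synthesis, at 0.09 ± 0.08 (adjusted p = 0.397, edgeR).

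**Figure D3:**
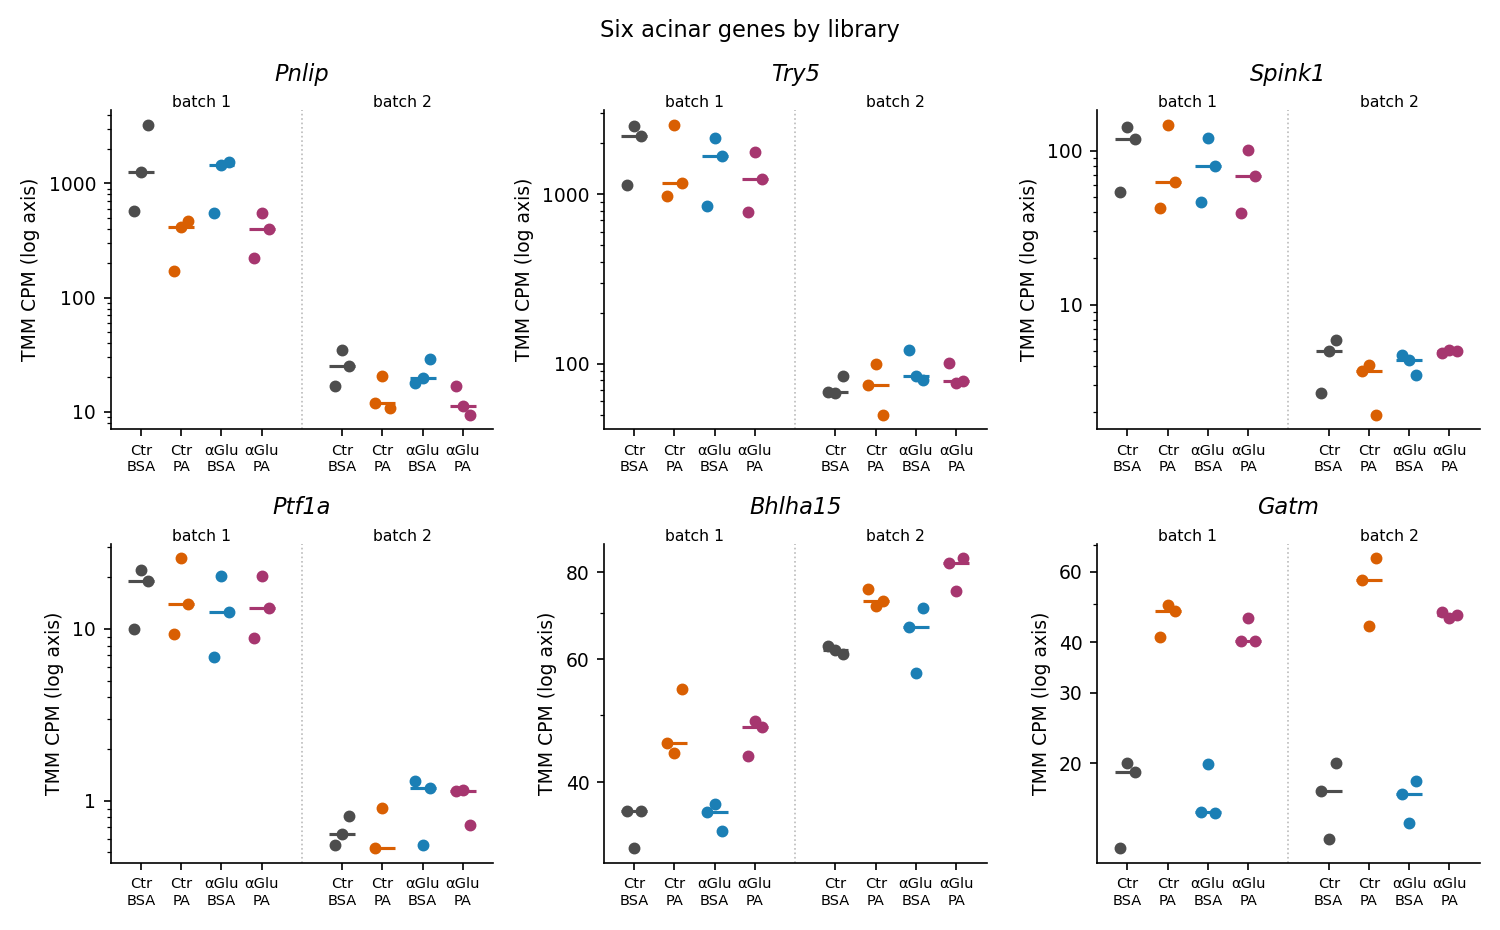
TMM CPM (log axis) of Pnlip, Try5, Spink1, Ptf1a, Bhlha15 and Gatm in the 24 libraries; points are libraries, lines are medians of 3. Pnlip, Try5, Spink1 and Ptf1a are lower in batch 2, Bhlha15 is higher there, and Gatm separates PA from BSA in both batches; the Ctr PA library of batch 2 without a Ptf1a count is not drawn.

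With PA in Ctr cells, 19 of 39 members were lower and Bhlha15 and Gatm higher, where 14.5% of genes tested were lower and 15.5% higher. The median log2 fold change was -0.91, against 0.01 over all genes, and 36 of the 39 estimates lay below 0. By a fold above 2 with unadjusted p below 0.05, 17 members passed, against 5.91% of all genes. With PA in αGlu cells, 11 members were lower and the same pair higher, where 14.2% and 14.4% of genes were lower and higher, the median was -0.64 against 0.01 over all genes, and 10 members passed the fold rule, against 5.57%. Each PA comparison has its own BSA libraries. Leaving out Ctr BSA library S9 of batch 1, which had the highest acinar share, left 9 members lower in Ctr cells. Leaving out αGlu PA library S4 left 4 lower in αGlu cells, and leaving out αGlu BSA library S6 left 7. Without a batch term 0 members were lower in either kind of cell. Fitted in batch 1 alone, 12 were lower in Ctr and 0 in αGlu cells, and in batch 2 alone 1 and 2 were. With the αGlu groups alone in the fit, 18 were lower in αGlu cells. The shares of all genes in these refits are not given here. The changes in count are therefore not read as particular to the members. The acinar share of single libraries varied within each group of batch 1 as given above, and its part in these counts was not tested.

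Fat-digesting enzymes were among the members lowest with PA. Pnlip stood at 570.3, 1266 and 3259 CPM in the Ctr BSA libraries of batch 1 and at 171, 415 and 472 CPM in Ctr PA. In αGlu cells of batch 1 it stood at 553, 1433 and 1538 CPM with BSA and 221, 395 and 548 CPM with PA. In batch 2 its values were 16.8, 25.2 and 34.9 CPM in Ctr BSA, 10.9, 11.9 and 20.4 CPM in Ctr PA, 17.7, 19.9 and 28.9 CPM in αGlu BSA, and 9.43, 11.2 and 16.7 CPM in αGlu PA. All PA libraries lay below all BSA libraries in batch 1, and the ranges overlapped in batch 2. The log2 fold change was -1.62 ± 0.39 in Ctr cells (adjusted p = 0.00285, edgeR) and -1.25 ± 0.39 in αGlu cells (adjusted p = 0.0164, edgeR). Within batches the Ctr estimate was -2.28 in batch 1 and -0.83 in batch 2.

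Cel, the bile salt-activated lipase, stood at 299, 697 and 1493 CPM (lowest, median and highest of 6) with BSA in batch 1 and at 118, 227 and 311 CPM with PA, and at 17.6, 20.2 and 33.8 CPM against 9.06, 12.6 and 16.3 CPM in batch 2. Its ranges were apart in batch 2 and overlapped slightly in batch 1. Its log2 fold change was -1.49 ± 0.33 in Ctr cells (adjusted p = 0.00155, edgeR) and -1.16 in αGlu cells. Pla2g1b, the secreted phospholipase, which is named here after its values were seen, stood at 13.6 to 66.7 CPM with BSA and 3.86 to 13.4 CPM with PA in batch 1, and at 0.986 to 1.24 CPM against 0.363 to 0.665 CPM in batch 2, with no overlap in either batch. Its log2 fold change was -1.80 ± 0.36 in Ctr cells (adjusted p = 0.000599, edgeR) and -1.31 in αGlu cells. Clps (-1.13) and Pnliprp2 (-0.91) also passed in Ctr cells, but Clps not without S3 or S9, and Pnliprp2 in 9 of 24 fits that each left out 1 library. Pnliprp1, a lipase relative with little activity of its own, did not pass in either, at -0.43 ± 0.38 and -0.37 ± 0.38. It stood at 337, 829.9 and 1250 CPM with BSA and 248, 337 and 1126 CPM with PA in batch 1. In batch 2 it stood at 41.8, 48.1 and 91.2 CPM against 21.9, 51.2 and 65.5 CPM. The highest PA values of Pnliprp1 came from libraries S7 and S8 of batch 1.

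Among all members, Pnlip and Pla2g1b were the ones whose PA libraries all lay below BSA in batch 1, where 6.28% of genes did, and Cel and Pla2g1b in batch 2, where 6.7% did. Bhlha15 and Gatm were the ones that all lay above, in batch 1 where 8.36% of genes did and in batch 2 where 7.21% did. Each of these counts is 2 of 39 tested members, near the share of all genes, so it does not set the members apart.

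All 3 elastases were lower with PA in both kinds of cell, where 14.5% and 14.2% of all genes were. Cela1, Cela2a and Cela3b, the genes concerned, encode serine proteases of the granule. In batch 1 Cela1 stood at 467, 1078 and 2292 CPM with BSA and 183, 390.4 and 481 CPM with PA, and in batch 2 at 32.9, 40.8 and 44.8 CPM against 15.03, 21.7 and 37.04 CPM. Cela2a stood at 876, 2006 and 3404 CPM against 426, 659.8 and 1159 CPM in batch 1, and at 39.9, 49.4 and 65.4 CPM against 18.7, 33.04 and 49.7 CPM in batch 2. Cela3b stood at 243, 550.1 and 1064 CPM against 99.0, 211 and 272 CPM in batch 1, and at 13.3, 18.4 and 25.1 CPM against 7.80, 10.8 and 23.1 CPM in batch 2. The medians were lower with PA in each case and the ranges overlapped. Log2 fold changes in Ctr cells were -1.29 ± 0.33 for Cela1 (adjusted p = 0.00453, edgeR), -1.09 ± 0.32 for Cela2a and -1.15 ± 0.33 for Cela3b, both at an adjusted p of 0.011. In αGlu cells they were -1.19, -0.86 and -1.05. Cela3b lost its call in Ctr cells without library S9 and in αGlu cells without S4, and Cela2a in αGlu cells without S4, S6, S10, S12, S14, S20, S22 or S24.

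Of the 6 trypsinogens Try4 passed, in both kinds of cell, and the estimates of all 6 lay below 0 in both. With 14.5% of all genes lower in Ctr cells and 14.2% in αGlu cells, 1 of 6 is near those shares. Try4 is named here after its values were seen. Try4 stood at 148, 433 and 939 CPM with BSA and 60.9, 127 and 174 CPM with PA in batch 1, and at 8.84, 13.1 and 20.04 CPM against 4.22, 7.20 and 15.7 CPM in batch 2, overlapping in both batches. Its log2 fold change was -1.48 ± 0.42 in Ctr cells (adjusted p = 0.00917, edgeR) and -1.31 ± 0.41 in αGlu cells (adjusted p = 0.0191, edgeR), and the αGlu call was lost without library S4 or S10. Try5, its neighbour on the chromosome, stood at 854, 1910 and 2524 CPM with BSA and 785, 1192 and 2569 CPM with PA in batch 1, and at 67.5, 82.2 and 119.6 CPM against 49.9, 78.4 and 101 CPM in batch 2. Its ranges largely coincided, with log2 fold changes of -0.16 ± 0.26 (adjusted p = 0.685, edgeR) and -0.21 ± 0.26. Prss2 stood at 579, 1278 and 1876 CPM against 410.4, 520.3 and 1261 CPM in batch 1, and at 46.5, 56.2 and 71.7 CPM against 30.1, 43.4 and 67.6 CPM in batch 2, with -0.55 ± 0.29 (adjusted p = 0.162, edgeR).

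Of the chymotrypsinogens, Ctrl passed in both kinds of cell and Ctrb1 in neither. Ctrl stood at 189, 452 and 929 CPM with BSA and 77.9, 149 and 197 CPM with PA in batch 1, and at 7.86, 9.07 and 16.9 CPM against 2.97, 6.32 and 9.13 CPM in batch 2. Its ranges overlapped at their edges in both. It passed at -1.50 ± 0.36 in Ctr cells (adjusted p = 0.00263, edgeR) and at -1.06 in αGlu cells, where the call was lost without S4, S6, S10 or S12. Ctrb1 stood at 1622, 3609 and 5249 CPM against 1161, 1484 and 3525 CPM in batch 1, and at 202, 232 and 316 CPM against 97.5, 176 and 264.5 CPM in batch 2. It did not pass, at -0.64 ± 0.29 (adjusted p = 0.0949, edgeR) in Ctr cells, though it did without S7 or S19. The carboxypeptidases Cpa1 (-1.03) and Cpb1 (-1.14) passed in Ctr cells, and Cpa1 (-0.98) in αGlu cells. Cpa1 stood at 467, 1105 and 2055 CPM with BSA and 229, 431 and 603 CPM with PA in batch 1, and at 31.9 to 47.2 CPM against 18.1 to 45.3 CPM in batch 2. Cpb1 stood at 173, 503 and 986 CPM against 95.3, 159 and 297 CPM in batch 1, and at 11.3 to 25.1 CPM against 8.09 to 15.1 CPM in batch 2. Both overlapped, and both lost the Ctr call without library S9, as Cpb1 did without S3 or S11 and Cpa1 its αGlu call without S4.

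Of 5 granule and inhibitor genes, 3 fell with PA in Ctr cells and 2 in αGlu cells, where 14.5% and 14.2% of all genes did. The trypsin inhibitor Spink1 did not pass. Sycn (syncollin, a granule membrane protein) stood at 71.7, 147 and 287 CPM with BSA and 28.1, 54.8 and 73.9 CPM with PA in batch 1, and at 3.67, 4.15 and 4.64 CPM against 1.00, 2.69 and 4.09 CPM in batch 2, overlapping at the edges. Its log2 fold change was -1.44 ± 0.32 in Ctr cells (adjusted p = 0.00122, edgeR) and -1.03 in αGlu cells, where the call was lost without S4 or S6. Gp2, the main glycoprotein of the granule membrane, stood at 48.6, 120.5 and 192 CPM against 28.99, 54.9 and 78.8 CPM in batch 1, and at 5.52 to 7.77 CPM against 3.18 to 6.95 CPM in batch 2. It was at -0.90 in Ctr cells, a call lost without S3, S5, S9 or S11, and at -0.96 in αGlu cells, a call lost without S4 or S6. Zg16, also named after its values were seen, passed in Ctr cells (-1.67), lost that call without S9, and stood at 49.1 to 279.9 CPM with BSA against 18.2 to 51.7 CPM with PA in batch 1. Spink1 stood at 46.4, 99.7 and 142 CPM against 39.6, 65.4 and 148 CPM in batch 1, and at 2.69, 4.55 and 5.87 CPM against 1.93, 4.47 and 5.11 CPM in batch 2. Its estimates of -0.38 ± 0.32 (adjusted p = 0.393, edgeR) and -0.05 did not pass, and the Ctr estimate passed without S7.

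Of the remaining enzymes, Rnase1, the pancreatic ribonuclease, passed in Ctr cells at -1.54 ± 0.40 (adjusted p = 0.00483, edgeR). It stood at 40.8, 130.4 and 237 CPM with BSA and 20.5, 37.5 and 66.6 CPM with PA in batch 1, and at 2.54 to 5.70 CPM against 1.66 to 3.32 CPM in batch 2. Amy1 passed in Ctr cells at a small -0.31 ± 0.10, a call lost without S9 or S15, with 7.73 to 10.5 CPM against 6.74 to 8.37 CPM in batch 1 and 4.57 to 5.24 CPM against 3.56 to 4.997 CPM in batch 2. Klk1, a tissue kallikrein, passed at -1.01 in Ctr cells, a call lost without S9, with 91.6, 216 and 339.5 CPM against 52.9, 87.2 and 159 CPM in batch 1, and 9.48 to 13.7 CPM against 5.01 to 11.9 CPM in batch 2. Tff2, a trefoil peptide, passed at -1.21 in Ctr cells, a call lost without S3 or S9. None of Rnase1, Amy1, Klk1 and Tff2 passed in αGlu cells.

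The Reg genes did not pass with PA in either kind of cell, 0 of 5 tested. With 14.5% of all genes lower in Ctr cells and 14.2% in αGlu cells, 0 of 5 is near those shares. For the Reg genes edgeR gave 0 at an unadjusted p below 0.05 as well. Reg1 stood at 64.6, 250.5 and 387 CPM with BSA and 44.9, 81.4 and 279.6 CPM with PA in batch 1, and at 10.2, 11.8 and 20.4 CPM against 10.1, 12.02 and 15.999 CPM in batch 2, with a log2 fold change of -0.51 in Ctr cells. Reg3b, an antimicrobial lectin, stood at 1.59, 9.58 and 21.8 CPM against 3.44, 5.83 and 26.03 CPM in batch 1, and at 1.41, 2.85 and 5.13 CPM against 1.11, 1.94 and 4.64 CPM in batch 2, with -0.23. The spread within a treatment exceeded the difference between treatments for both.

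Of the transcription factors, Bhlha15 passed and Ptf1a, Rbpjl and Nr5a2 did not. Ptf1a stood at 6.84, 15.8 and 21.9 CPM with BSA and 8.79, 13.6 and 25.8 CPM with PA in batch 1. In batch 2 it stood at 0.553, 0.728 and 1.30 CPM against 0, 0.819 and 1.15 CPM, where the library at 0 (S23) allows up to 0.107 CPM at 3 counts. Its estimate with PA was -0.16 ± 0.38 in Ctr cells (adjusted p = 0.78, edgeR) and 0.06 ± 0.39 in αGlu cells. Rbpjl (-0.36) and Nr5a2 (-0.62) did not pass either. Bhlha15 rose. It stood at 32.2, 36.3 and 36.4 CPM in Ctr BSA and 43.995, 45.5 and 54.4 CPM in Ctr PA of batch 1, and at 34.1, 36.2 and 37.2 CPM in αGlu BSA and 43.6, 48.1 and 48.9 CPM in αGlu PA. In batch 2 it stood between 57.4 and 71.0 CPM with BSA and between 71.7 and 83.8 CPM with PA. PA and BSA libraries were apart within each batch, and every batch 2 library lay above every batch 1 library. The log2 fold change was 0.35 ± 0.06 in Ctr cells (adjusted p = 0.00016, edgeR) and 0.35 ± 0.06 in αGlu cells (adjusted p = 0.000187, edgeR).

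Gatm rose most. It stood at 12.3, 18.998 and 20.1 CPM in the Ctr BSA libraries of batch 1 and at 41.3, 47.8 and 49.6 CPM in Ctr PA, and at 12.96, 17.1 and 20.1 CPM against 43.99, 57.1 and 64.8 CPM in batch 2. In αGlu cells it stood at 15.1, 15.2 and 19.99 CPM with BSA and 40.4, 40.4 and 46.1 CPM with PA in batch 1, and at 14.2, 16.8 and 18.1 CPM against 46.02, 46.7 and 47.7 CPM in batch 2. All 12 PA libraries lay above all 12 BSA libraries. The log2 fold change was 1.57 ± 0.12 in Ctr cells (adjusted p = 1.78e-09, edgeR), a fold of 2.97, and 1.43 ± 0.12 in αGlu cells (adjusted p = 8.33e-09, edgeR), a fold of 2.69. Within batches the Ctr estimate was 1.41 in batch 1 and 1.72 in batch 2.

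**Figure D4:**
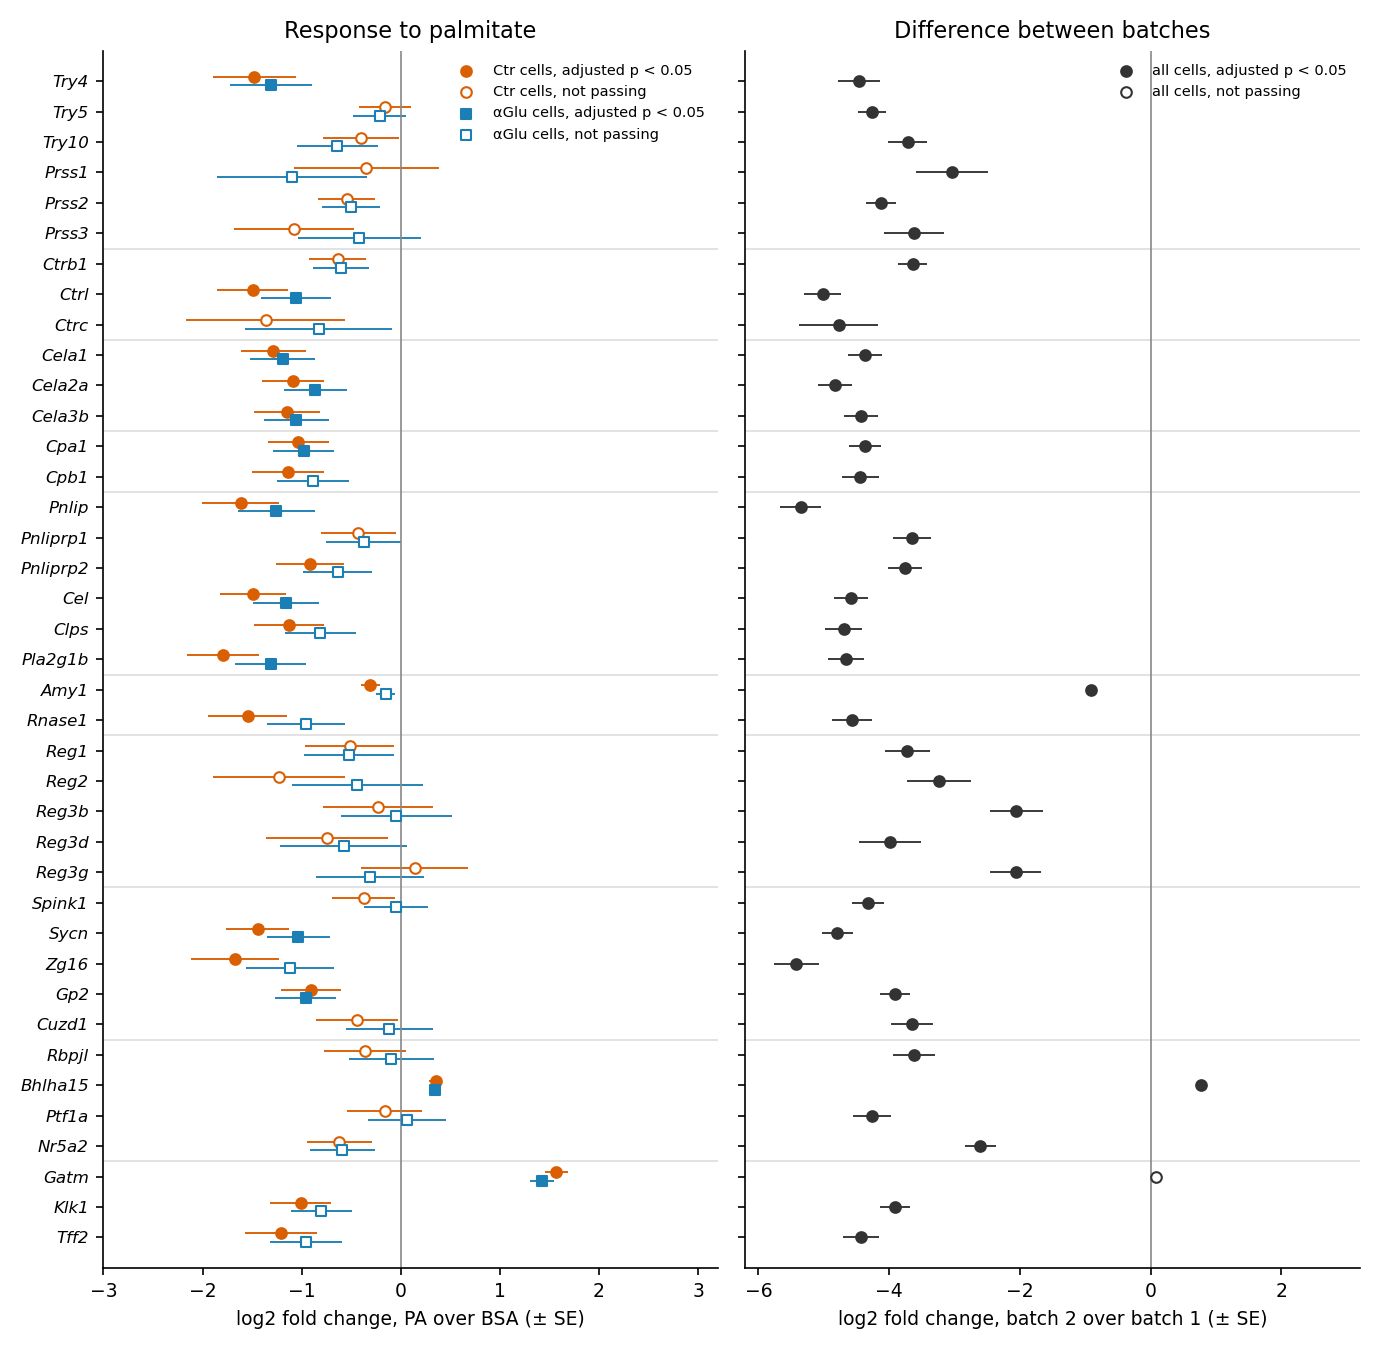
Log2 fold changes (± SE) of the 39 tested members, for PA over BSA in Ctr and αGlu cells on the left and batch 2 over batch 1 on the right, grouped by role; filled marks passed an adjusted p below 0.05. With PA, 19 members lie lower and 2 higher in Ctr cells, and between batches 37 lie lower, 4 of which passed the filter only through batch 1, and Bhlha15 higher.

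Whether αGlu changed these genes was asked in 3 comparisons, and no member passed in any. In BSA, αGlu against Ctr gave 0 of 39 by edgeR, 0 at an unadjusted p below 0.05 and 0 by DESeq2. Of all genes, 0% passed by edgeR (461 at an unadjusted p below 0.05), DESeq2 called 6 higher and 2 lower, and 0.785% passed the fold rule. The members' log2 fold changes ran from -0.85 for Ctrc to 0.09 for Nr5a2, with a median of -0.25. In PA, αGlu against Ctr gave 0 of 39 by edgeR, 0 at an unadjusted p below 0.05 and 0 by DESeq2. Of all genes, 0% passed by edgeR (538 at an unadjusted p below 0.05), DESeq2 called 1 higher and 29 lower, and 0.942% passed the fold rule. The members ran from -0.84 for Prss1 to 0.29 for Rnase1, with a median of -0.03. Standard errors were large against these values. In BSA they were 0.37 for Pnlip at -0.40, 0.26 for Try5 at 0.00 and 0.12 for Gatm at -0.04. In PA they were 0.39 for Pnlip at -0.04 and 0.11 for Gatm at -0.19.

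The counts of 19 and 11 members lower with PA do not by themselves show a difference between Ctr and αGlu cells. The difference between the PA responses was tested as an interaction, and gave 0 of 39 members by edgeR, 0 at an unadjusted p below 0.05 and 0 by DESeq2. Of all genes, 0% passed by edgeR (332 at an unadjusted p below 0.05), DESeq2 called 0, and 0.653% passed the fold rule. It was 0.36 ± 0.54 for Pnlip, 0.33 ± 0.46 for Cel, 0.48 ± 0.51 for Pla2g1b and -0.15 ± 0.17 for Gatm. The median over members was 0.21, against -0.01 over all genes, and 31 of 39 estimates lay above 0. Many members moved together across libraries, as given below, so these estimates are not independent of each other.

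The PA response was also compared between batches. No member passed an adjusted p below 0.05 by edgeR or DESeq2, where 0.0565% of all genes did by edgeR. At an unadjusted p below 0.05, 983 of all 15916 genes passed by edgeR, and 5 members did. The same number of members passed the fold rule, namely Try10, Ctrc, Pnlip, Zg16 and Cuzd1, against 1.49% of all genes. Ctrc passed the filter on low counts only through batch 1 and had 16 counts in all of batch 2, so its value is not read here. Try10 had 167 counts in batch 2. Pnlip was at 1.10 ± 0.52 (adjusted p = 0.803, edgeR), that is, less negative in batch 2. The median over the 39 tested members was 0.76, against -0.01 over all genes. It includes the 4 members that passed the filter only through batch 1.

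Ratios of counts within a library set a member against another of the same library. They were chosen after the values were seen and are given with no test. Try4 over Try5 was 0.150 to 0.429 in the 6 BSA libraries of batch 1 and 0.0621 to 0.111 in the 6 PA libraries, with no overlap. In batch 2 it was 0.0897 to 0.297 against 0.0614 to 0.157. Pnlip over Ptf1a was 57.5 to 171 with BSA against 16.1 to 33.8 with PA in batch 1, and 13.6 to 54.2 against 9.70 to 22.4 in batch 2, where 5 PA libraries had a value. Cel over Ptf1a was 29.8 to 78.3 against 11.1 to 17.5 in batch 1, with no overlap, and 13.5 to 52.5 against 7.85 to 23.5 in batch 2. Try5 over Ptf1a was 105.4 to 134 with BSA and 83.3 to 105.0 with PA in batch 1, apart by a narrow gap. In batch 2 its values were 67.1 to 152 against 66.9 to 142. Prss2 over Try5 was 0.581 to 0.857 against 0.435 to 0.593 in batch 1. Spink1 over Try5 stayed between 0.0387 and 0.0743 in all 24 libraries. Reads shared between Try4 and Try5 enter the first of these ratios.

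**Figure D5:**
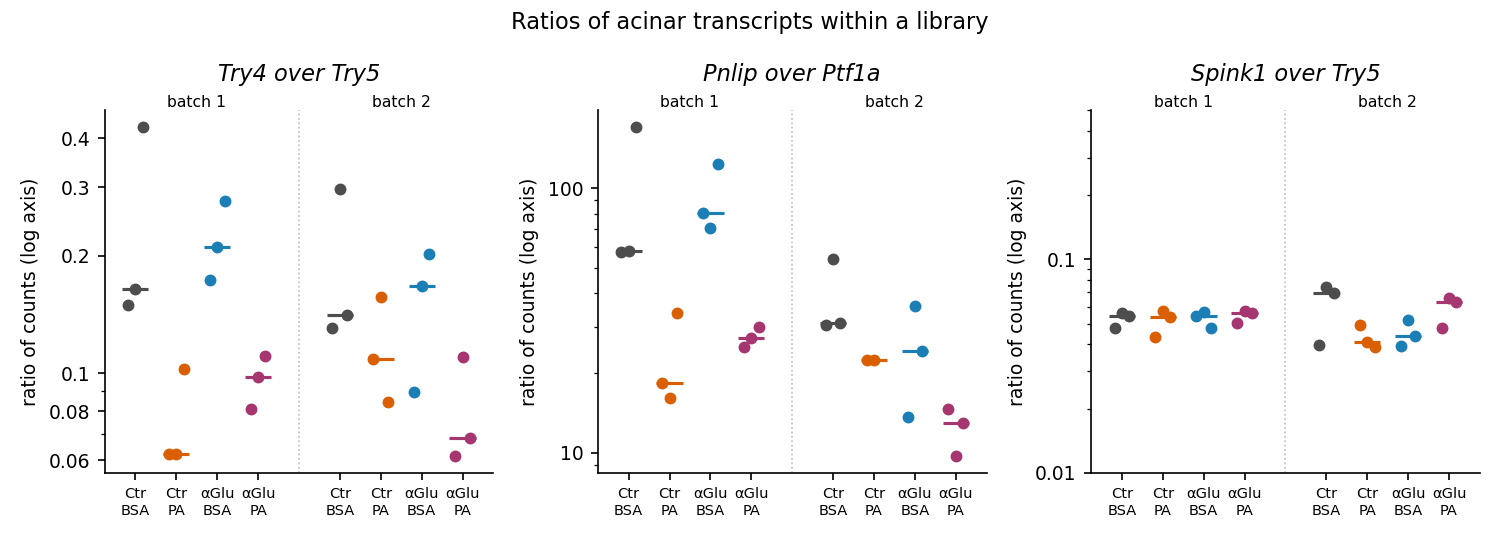
Ratios of counts within each library (log axis) by group and batch; points are libraries, lines are medians of 3. In batch 1 Try4 over Try5 lies at 0.150 to 0.429 with BSA and 0.0621 to 0.111 with PA, and Pnlip over Ptf1a at 57.5 to 171 and 16.1 to 33.8; the library with no Ptf1a count has no value.

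Each member was also set against the acinar total of the library. Over the 12 libraries of a batch, Spearman's rho between a member's CPM and the sum of the other members was above 0.6 for 33 of 40 members in batch 1 and for 20 of 40 in batch 2. It was 0.99 for Ctrb1, 0.97 for Cela2a and 0.86 for Pnlip in batch 1, and 0.93, 0.95 and 0.78 in batch 2. It was lower for Ptf1a (0.66 and 0.51) and Reg3b (0.59 and 0.30). Try10 (0.91 and -0.17), Cuzd1 (0.88 and -0.13), Spink1 (0.83 and 0.08) and Amy1 (0.76 and 0.20) were high in batch 1 and near 0 or low in batch 2. In batch 2 Try10 held 167 counts and Cuzd1 365 over the 12 libraries. The acinar share spanned 0.0443% to 0.1004% there, against 0.498% to 3.01% in batch 1. The part of low counts and a narrow range in the lower rho was not tested. Bhlha15 (-0.50 and -0.49) and Gatm (-0.36 and -0.74) ran against the total. The share of all genes above 0.6 is not given here, and the libraries share their treatments, so these values are a description.

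The counts of the other gene lists below stand against the shares of all genes given above, 14.5% lower and 15.5% higher with PA in Ctr cells, 14.2% and 14.4% in αGlu cells, and 25.4% and 26.1% between batches. Other acinar genes were kept apart from the 40. Of 27 listed, 24 were in the table and 20 were tested. With PA, 10 were lower and 2 higher in Ctr cells, 6 lower and 2 higher in αGlu cells, and 17 lower and 2 higher in batch 2. The lowest with PA by p were copies of pancreatic amylase, Amy2a5 (-1.38) and Amy2a4 (-1.31), which share nearly all their sequence and are uncertain one by one. The higher pair was Rab3d, a GTPase of secretory granules (0.34 with PA in Ctr cells and 0.73 between batches), and Tmed6 (0.47 and 0.40). Like Bhlha15, both were higher with PA and in batch 2. Summed, the list stood at 3204 to 14980 CPM with BSA and 1626 to 3666 CPM with PA in batch 1. In batch 2 the sum was 657 to 762 CPM against 653 to 726 CPM. A sum follows its most abundant genes and need not show what most of the list did. The median log2 fold change of the 20 tested genes was -3.91 between batches. With PA it was -0.91 in Ctr cells and -0.65 in αGlu cells, against 0.01 over all genes in both.

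Genes of the IL-6 family and STAT3, the pathway known to raise Reg genes, were read beside them. Of 17 tested, 3 were lower and 0 higher with PA in Ctr cells, at Icam1 -2.28, Junb -0.57 and Stat3 -0.17, where 14.5% of all genes were lower, a count near that share. In αGlu cells 3 were lower, against 14.2%. Between batches 7 were lower and 2 higher, against 25.4% and 26.1%. Socs3, the feedback inhibitor of the pathway, was at -0.24 ± 0.10 with PA in Ctr cells (adjusted p = 0.0681, edgeR).

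Markers of other cells in the preparation moved as well, and their part in the acinar values was not tested. Of 14 ductal genes tested, 6 were lower with PA in Ctr and 6 in αGlu cells, led by Sox9 (-1.39) and Krt20 (-2.99), and 11 were lower and 1 higher in batch 2, with Krt19 at -3.17. The ductal sum stood at 2796 to 5535 CPM in batch 1 and 953 to 2262 CPM in batch 2. Of 10 β-cell genes, 3 were higher and 3 lower with PA in Ctr cells, 3 and 2 in αGlu cells, and all 10 were higher in batch 2, from 0.20 for Nkx6-1 to 0.91 for G6pc2. Named by p, the PA values were 0.58 for Ucn3, -0.44 for Ins1 and -0.41 for Mafa. The β-cell sum stood at 84084 to 134035 CPM in batch 1 and 110426 to 152138 CPM in batch 2, so these markers of the labelled islet cells were present throughout.

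Of 8 α-, δ- and PP-cell genes, 3 were lower with PA in Ctr cells, 1 in αGlu cells and 6 in batch 2. Of 8 endothelial genes, 0 passed with PA and 4 were lower in batch 2. Of 7 fibroblast and stellate cell genes tested, 6 were lower with PA in Ctr cells, 4 in αGlu cells and 0 in batch 2, with Pdgfrb at -2.08 in Ctr cells. Of 10 macrophage genes, 8 were lower with PA in Ctr cells and 1 in αGlu cells, with Csf1r at -2.20 in Ctr cells, and 1 was higher in batch 2. The counts of 8 and 1 do not by themselves show a difference between Ctr and αGlu cells. As an interaction 0 of the 10 passed by edgeR, where 0% of all genes did, and 6 were at an unadjusted p below 0.05. Of 8 glial genes, 0 passed with PA and 2 were higher in batch 2. The fibroblast sum stood at 54.8 to 420.3 CPM with BSA and 6.45 to 162 CPM with PA in batch 1, and at 43.6 to 939 CPM against 8.47 to 41.96 CPM in batch 2.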

How the data were processed

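Poly(A) RNA of 24 libraries of mouse islet cells was sequenced from stranded libraries. The authors made gene counts, TPM and RPKM in the QIAGEN RNA-seq Analysis Portal on GRCm38. The sources used here name neither aligner nor annotation. The deposited counts were used as given for all tests, the deposited TPM for levels between genes, and the deposited RPKM for a check of their order. Library groups came from the labels, which give a batch of 12 libraries each without saying what it is. The study names 6 independent experiments per group, and states that the groups of a replicate came from the same animal or passage. The labels do not say which libraries those are, so all tests are unpaired and p-values measure the spread between libraries.

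Counts were scaled by TMM (factors 0.853 to 1.06), genes filtered with filterByExpr (minimum count of 10), and tested with the quasi-likelihood test of edgeR 4.0.16 (R 4.3.3) with group and batch over all 24 libraries, two-sided, with Benjamini-Hochberg adjustment over 15916 genes and a threshold of 0.05, in 7 comparisons. The fold rule is a fold change above 2 with p below 0.05. Both limits follow the study, and p was taken unadjusted here. Alternatives were DESeq2 1.42.0, upper-quartile scaling, other filters, a fit without batch, fits of just the groups or just the batch in question, 2 surrogate variables (sva 3.50.0) and leaving out each library. On simulated data for PA in Ctr cells (15759 genes) the test found 87% of 2-fold and 90% of 4-fold changes, and between batches (15760 genes) 84% and 99%. The changed genes were drawn at random from all genes, at a single mean level per gene and with no batch effect. These shares therefore do not give the power for the acinar members, whose standard errors are given above. A count of 0 allows up to 3 counts, or 0.0857 to 0.165 CPM by library size. Floors and errors cover counting and the spread between libraries only.

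The members and all lists were chosen with earlier results of these data known. Genes given with values were, in each role, the 2 members of highest mean CPM, and the 12 members of smallest p among those that passed, with Try4, Pla2g1b and Zg16 added after their values were seen. Of each other list, genes of smallest p with PA in Ctr cells are named, apart from 1 that is not reported here. Positions came from GENCODE vM21, promoters from RefSeq (GRCm38.p6).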

Additional observations from a re-analysis of the deposited data

Results flagged for a closer look

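In 108 groups of 6 libraries, looked at for the summed share and the genes given with values, 8 held a highest library whose gap to the next exceeded 0.625 of the group's range (Dixon's criterion). Chance gives about 1 in 20 such groups for values of a single population. The groups here pool 2 batches that differ in level, so that rate does not apply to them. All 8 lie in batch 1, in libraries S6, S7 and S8. The genes concerned had the higher medians in batch 1, so a highest library was to be found there in any case. Among Ctr PA libraries, S7 stood at 3525 CPM for Ctrb1 (next 1376 CPM), at 1126 CPM for Pnliprp1 (next 382 CPM), at 279.6 CPM for Reg1 (next 83.7 CPM) and at 26.03 CPM for Reg3b (next 6.62 CPM). Among αGlu PA libraries, S8 stood at 825 CPM for Pnliprp1 (next 291 CPM), at 218 CPM for Reg1 (next 79.1 CPM) and at 20.8 CPM for Reg3b (next 5.04 CPM). Among αGlu BSA libraries, S6 stood at 21.8 CPM for Reg3b (next 5.13 CPM).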

How the results depend on the processing

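DESeq2, upper-quartile scaling and both other filters left the count of members called within 1.5 times of the reported one in all 7 comparisons, and the 3 αGlu comparisons stayed at 0 under every alternative run. With PA in Ctr cells the count of 21 became 1 without a batch term and 2 in batch 2 alone. In αGlu cells the count of 13 became 1 without a batch term, 20 with the 2 groups alone, 2 in batch 1 alone and 4 in batch 2 alone. Between batches the count of 38 became 5 with 2 surrogate variables, whose leading variable was above 0 in all 12 libraries of batch 1 and below 0 in all 12 of batch 2. The count for the PA response by batch, 0, became 2 with surrogate variables and 5 under the fold rule, Ctrc among the 5. Leaving out 1 library each gave 11 to 25 members with PA in Ctr cells, 6 to 18 in αGlu cells and 38 to 39 between batches. Signs turned for 7 members with PA in Ctr cells under surrogate variables, none of them called in the reported fit (Try5 0.37, Prss2 0.00833, Pnliprp1 0.38, Reg1 0.28, Reg3b 0.84, Spink1 0.32, Ptf1a 0.58), for Try5 (0.25) and Pnliprp1 (0.31) in αGlu cells, and between batches for Reg1 (1.02) and Reg3b (2.98), both called in the reported fit. In batch 2 alone Try5 turned to 0.035 and Reg1 to 0.12, and with 1 library left out Try5 ran from -0.42 to 0.0020 and Ptf1a from -0.57 to 0.024, turning without S5 only. The causes were not tested, and the shares of all genes passing under these alternatives are not given here. No paired analysis was possible because the labels give the groups no shared replicate numbers, though the study states that the groups of a replicate share their source. Counts in batch 2 are the limit for low members: Prss1, Ctrc and Reg3d have libraries at 0 there.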
